A study of Zea mays and Oryza sativa with 119 samples.

Results

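Section 9 of the maize leaf was compared with section 8, its neighbour by number, over 10 RNA libraries, 5 from each section, out of 119 libraries in the series, of which 75 were maize and 44 rice. The libraries were those of replicates 1, 2, 3, 4 and 6 of each section, and the genes tested were the 10071 features with a mean of at least 5 FPKM over these 10 libraries, out of 110005 in the table. FPKM are fragments mapped to a gene, divided by its length and by all mapped fragments, so that levels can be set side by side between genes. All libraries held polyadenylated RNA of the third leaf of the cultivar B73, an inbred line, from seedlings aged 9 days that were grown with 12 h light at 550 µmol per m2 and s and 31 °C, 12 h dark at 22 °C, and 50% relative humidity. Leaves were cut into pieces of 1 cm, and each replicate pooled 7 plants on average and was collected on its own date. Sections 8 and 9 therefore differ in position along the leaf and in no treatment or genotype, and a replicate number stands for the same pool of plants in both. The labels do not say from which end of the leaf the sections were counted. Sections 6 and 10, treated in the same way, served to set the step beside its surroundings.

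A grass leaf grows from its base, so a row of pieces along the blade is also a row of ages of its cells. Young cells divide, enlarge and build primary walls, wax and plastids, and older cells carry the finished photosynthetic machinery. Maize fixes carbon by the C4 pathway, in which mesophyll cells capture carbon dioxide into 4-carbon acids and bundle sheath cells around the veins release it again for Rubisco. In bulk pieces of leaf, fewer cells of a type and less RNA per cell cannot be told apart.

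The section 8 libraries were the shallower set. Depth relative to the median maize library, read from the step that a single fragment makes in low values, ran from 0.154 to 0.514 in section 8 and from 0.321 to 0.883 in section 9, and the ranges overlapped (exact permutation test over all divisions of the 10 libraries, two-sided, p 0.0476, where the smallest possible p is 0.00794). Of the tested genes 4.32 to 10.2% were at 0 in a section 8 library and 3.24 to 5.80% in a section 9 library. The part of depth in the changes below was not tested, and the absolute numbers of fragments are not known. Each of the 5 section 8 libraries was closest to the mean profile of section 8 made from the other replicates. So were 4 of the section 9 libraries to section 9, while section 9 replicate 4 had r of 0.889 with section 10 and 0.888 with section 9, and counts without it are given below.

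More of the called genes were lower than higher in section 9. At a Benjamini-Hochberg adjusted p under 0.05 in limma, 337 genes (3.35% of those tested) were called: 124 (1.23%) were higher in section 9 and 213 (2.11%) were lower. At an unadjusted p under 0.05 there were 1904 of the 10071 genes. The median change over all tested genes was -0.02 on the scale of log2(FPKM + 1), which is used for every change below and understates the change of low genes. A change of at least 1 in size was reached by 110 called genes (1.09%), 30 higher and 80 lower. Of the 124 higher genes 112 had libraries that did not overlap between the sections, as had 261 (2.59%) of all tested genes in that direction. Of the 213 lower genes 191 had such libraries, as had 390 (3.87%) of all tested genes. The calls were made from the same values, so this separation describes the called genes and adds no support to their calls. The same holds for each called gene below whose sections are said not to overlap. When the replicate number entered the fit as a block, 63 genes (0.626%) were called, 16 higher and 47 lower, and 61 of them were among the 337.

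The count of calls varied with the libraries. Without section 8 replicate 1, 2, 3, 4 or 6 the genes higher in section 9 numbered 42, 50, 144, 56 and 160, and the lower ones 73, 99, 296, 116 and 265. Without section 9 replicate 1, 2, 3, 4 or 6 the higher ones numbered 66, 38, 27, 44 and 78, and the lower ones 112, 85, 54, 117 and 149. Called in every one of these 10 removals were 25 of the 124 higher genes and 53 of the 213 lower genes. For each named gene the adjusted p is therefore followed by the adjusted p with the replicate block and by the number of the 10 removals in which it was still called, and the 5 values per section stand in the order of replicates 1, 2, 3, 4 and 6. Counts of called list members are to be read beside the 3.35% called over all tested genes (1.23% higher and 2.11% lower). Of the 1036 tested genes with a name 66 were called, 26 higher and 40 lower, a larger share than over all tested genes. The lists were made from genes with a name, apart from members entered by identifier, and are also to be read beside that share.

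Calls grew more frequent with expression level. They took 1.03% of the 6090 genes with a mean of 5 to 20 FPKM, 4.49% of 2939 genes at 20 to 100 FPKM, 11.5% of 794 genes at 100 to 500 FPKM and 20.6% of the 248 genes above that. The median spread between libraries of a section fell over the same classes, from an SD of 0.52 on the log2 scale to 0.34, 0.21 and 0.15. At the low end, 163 tested genes were above 0 in 1 library of the 10.

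**Figure D1:**
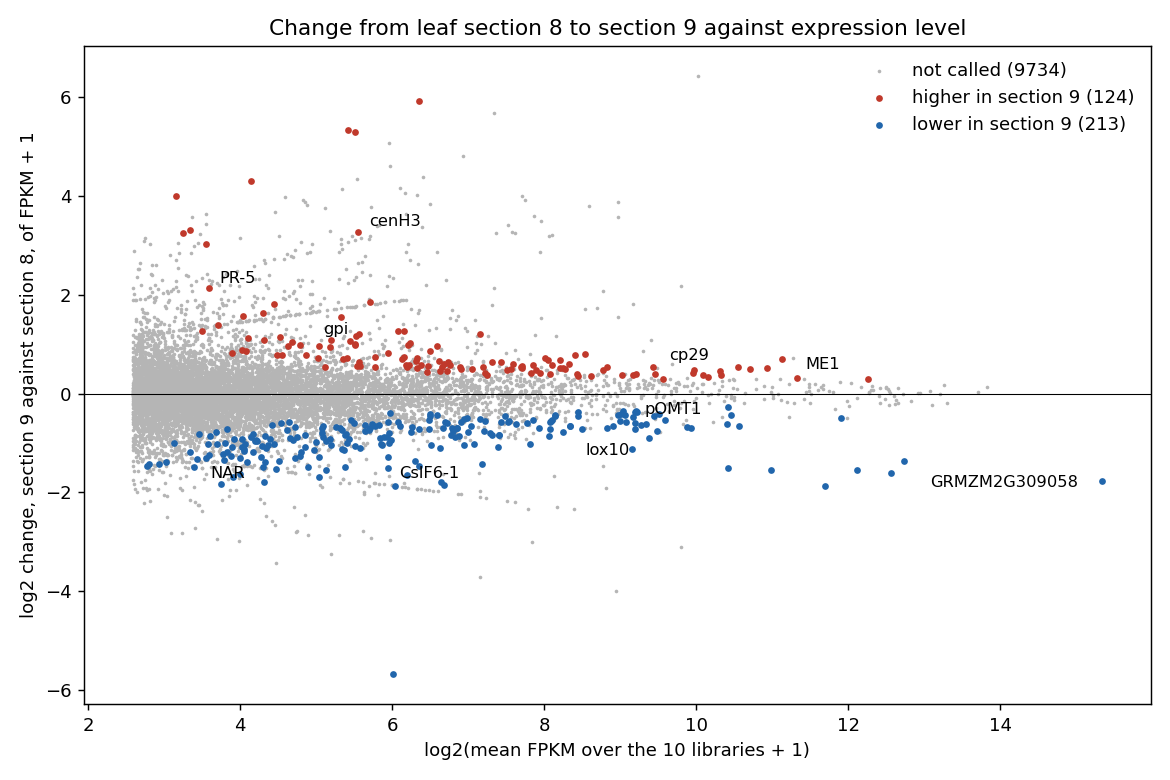
Log2 change of FPKM + 1 from section 8 to section 9 (vertical) against log2 of the mean FPKM + 1 over the 10 libraries (horizontal) for 10071 genes, with 124 genes called higher in red, 213 called lower in blue and the others in grey. The grey cloud narrows towards high levels, where smaller changes are called, and GRMZM2G309058 lies apart at the right, at -1.78.

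The gene with the highest mean level over these 10 libraries was among those that fell. GRMZM2G309058, which has no entry in the reference table of names, was at 70234, 67204, 64367, 64716 and 52984 FPKM in section 8 and 17789.7, 17246, 17191, 15325 and 27158 FPKM in section 9. Every section 9 library lay far below every section 8 library, and the change was -1.78 ± 0.14 (adjusted p 0.000412, block 0.0209, removals 10). Section 9 replicate 6 stood above the other section 9 libraries. The gene made up 5.82 to 7.21% of the FPKM sum of a section 8 library and 1.66 to 3.21% of a section 9 library. Over the 10 highest features of each library the share was 15.3 to 17.3% in section 8 and 12.1 to 12.9% in section 9 (exact permutation test, two-sided, p 0.00794, the smallest this design allows).

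The other 4 of the 5 most abundant genes that fell had no entry either. GRMZM2G005721 was at 9814 ± 1281 FPKM (SD, n = 5) in section 8 and 3812 ± 622 FPKM (SD, n = 5) in section 9, a change of -1.37 ± 0.12 (adjusted p 0.000494, block 0.0264, removals 10). GRMZM2G031730 changed by -1.60 ± 0.19 (adjusted p 0.00399, block 0.0419, removals 10), GRMZM2G510249 by -1.55 ± 0.12 (adjusted p 0.000412, block 0.0163, removals 10) and GRMZM2G023777 by -0.51 ± 0.06 (adjusted p 0.00399, block 0.0475, removals 10). None of the 5 overlapped between the sections. Among the 248 genes above 500 FPKM, 33 were called lower and 18 higher, and their median change was 0.04.

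Genes of the cell wall list had calls in the downward direction alone. Of 27 tested genes of primary wall synthesis and loosening, 4 fell and 0 rose. That is 14.8% lower, beside 2.11% over all genes and 40 of the 1036 tested genes with a name. A negative change was seen in 24, and the median was -0.59, beside -0.02 over all genes. With the replicate block 0 were called. CslF6-1, a synthase of the mixed-linkage glucan typical of grass walls, was at 102, 124, 77.3, 86.3 and 61.1 FPKM in section 8 and 34.7, 29.7, 25.8, 22.6 and 42.9 FPKM in section 9. Every section 9 library lay below every section 8 library, and the change was -1.50 ± 0.22 (adjusted p 0.00808, block 0.0526, removals 10). bk2 (brittle stalk2), a COBRA-like protein needed for the strength of cellulose walls, was at 20.3, 37.2, 16.4, 15.8 and 19.9 FPKM in section 8 and 7.13, 11.1, 7.09, 9.52 and 11.4 FPKM in section 9. The sections did not overlap, though section 8 replicate 2 stood far above the other 4, and the change was -1.12 ± 0.25 (adjusted p 0.0396, block 0.0781, removals 1).

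CesA-7, a subunit of cellulose synthase and the wall gene with the highest level, was at 136 ± 20.6 FPKM (SD, n = 5) in section 8 and 83.2 ± 7.23 FPKM (SD, n = 5) in section 9 and changed by -0.69 ± 0.12 (adjusted p 0.0176, block 0.0726, removals 9). BURP4, which carries a BURP domain, was at 47.7, 47.3, 38.6, 53.0 and 59.6 FPKM in section 8 and 11.2, 10.4, 15.2, 13.1 and 42.7 FPKM in section 9. Its section 9 replicate 6 lay within the section 8 range while the other 4 lay far below it, and the change was -1.55 ± 0.33 (adjusted p 0.0351, block 0.066, removals 2). Other cellulose synthase genes did not pass the test: CesA-8 had a change of -0.73 (adjusted p 0.186), CesA-4 of -0.59 (adjusted p 0.078) and CesA-3 of 0.38 (adjusted p 0.63). XAT2, a xylan arabinosyltransferase in grasses that was not in the list, was at 15.6, 21.6, 14.8, 13.3 and 12.7 FPKM in section 8 and 7.70, 5.84, 3.77, 4.89 and 6.62 FPKM in section 9, with no overlap and a change of -1.30 ± 0.22 (adjusted p 0.0161, block 0.0697, removals 10).

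The lignin and phenylpropanoid list had the lowest median of the lists with 4 or more tested genes, -0.70 over 12 genes, with 1 that fell and 0 that rose. Its median within a replicate pair ran from -1.38 to 0.07, a spread wider than the median itself, and 3 of its tested members are laccases that also stand among the vascular markers. That gene was PAL1, a phenylalanine ammonia-lyase at the entry of the pathway, at 152, 269, 131, 136 and 141 FPKM in section 8 and 91.9, 80.0, 57.9, 65.0 and 94.3 FPKM in section 9. Its sections did not overlap, section 8 replicate 2 was high, and the change was -1.05 ± 0.21 (adjusted p 0.0293, block 0.066, removals 4). 4CL, a ligase of the same pathway, had a change of -0.72 (adjusted p 0.0661), and CCR, a cinnamoyl-CoA reductase and the most abundant gene of the list, one of 0.30 (adjusted p 0.0893). Of 6 flavonoid genes f3h, flavanone 3-hydroxylase, fell by 1.08 ± 0.24 (adjusted p 0.0402, block 0.0876, removals 2), and c2, the chalcone synthase with the highest level, had a change of -0.33 (adjusted p 0.176).

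Both called genes of the wax and lipid transfer list were lower in section 9. Of its 13 tested genes 2 fell and 0 rose, 11 were negative, and the median was -0.28. gl1 (glossy1), of the surface wax pathway, was at 149.7, 152, 113, 163 and 120.3 FPKM in section 8 and 76.9, 79.3, 89.2, 88.6 and 75.1 FPKM in section 9. The lowest section 8 library lay above the highest section 9 library, and the change was -0.75 ± 0.12 (adjusted p 0.0131, block 0.0628, removals 10). gl4a, a glossy gene of fatty acid elongation, was at 76.5 ± 15.5 FPKM (SD, n = 5) in section 8 and 36.9 ± 7.00 FPKM (SD, n = 5) in section 9, a change of -1.03 ± 0.18 (adjusted p 0.0177, block 0.066, removals 8). plt1, a lipid transfer protein and the most abundant gene of this list, had a change of -0.49 (adjusted p 0.0546). The summed level of the 17 genes of this list, which also served as epidermis markers, was 754 to 1175 FPKM in section 8 and 674 to 773 FPKM in section 9, with none of the 17 at 0 in all 10 libraries, and the part of cell make-up in the change was not tested.

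**Figure D2:**
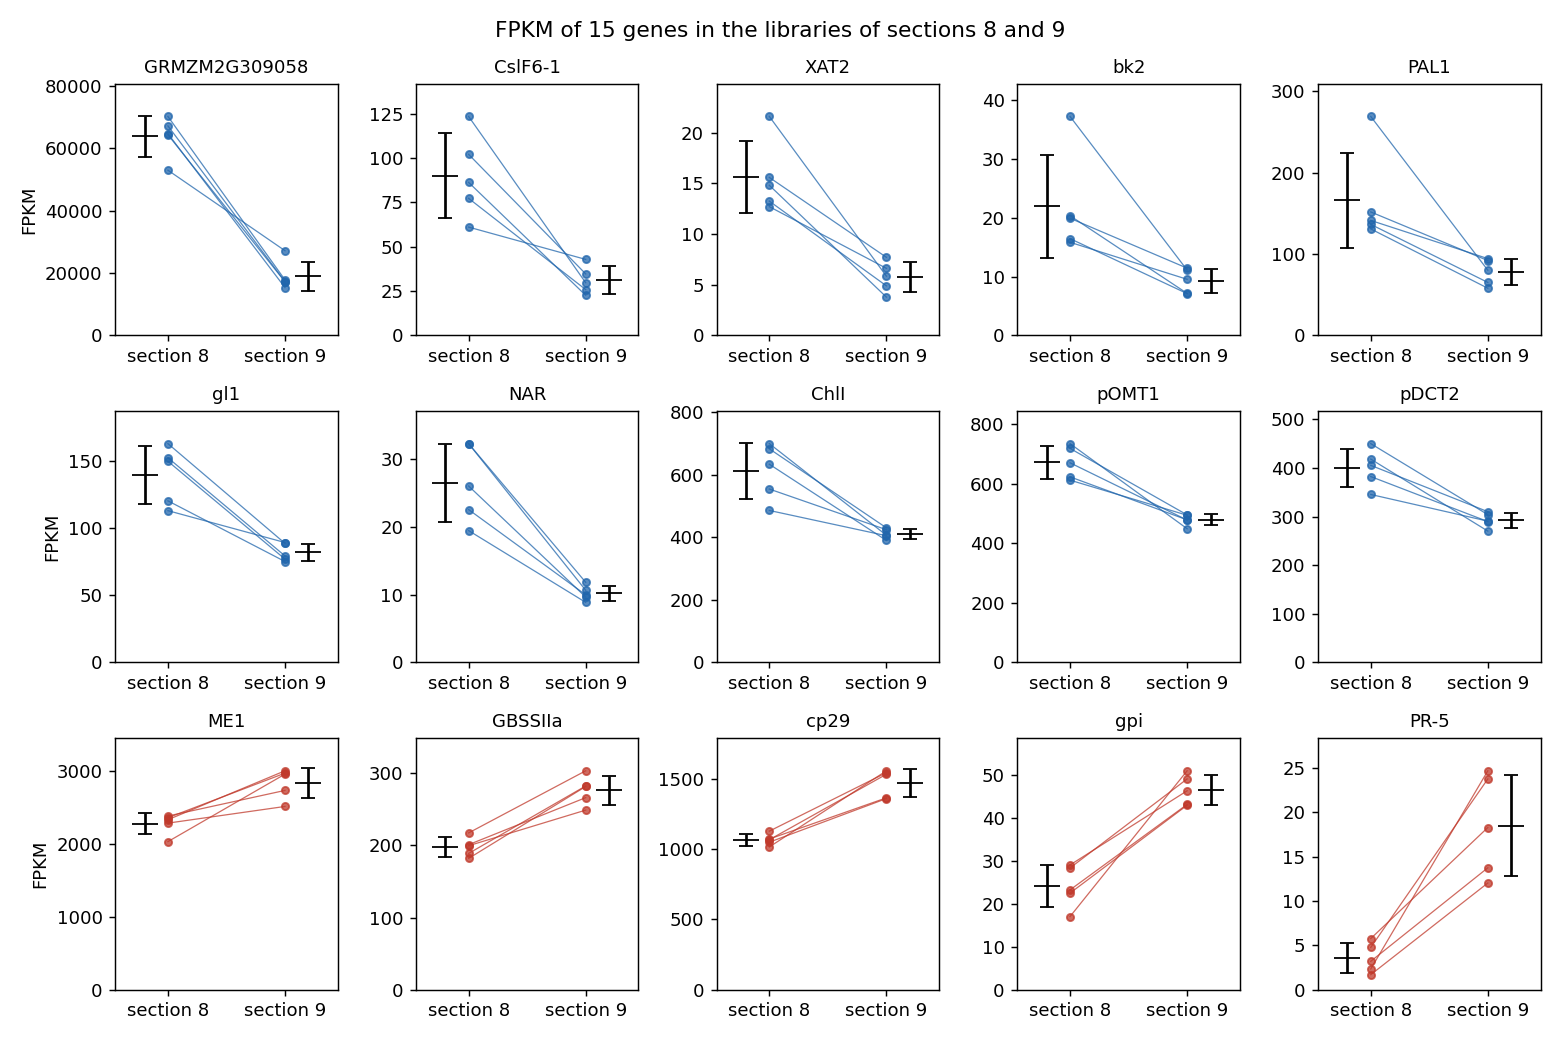
FPKM (vertical, from 0) of 15 genes in sections 8 and 9. Points are the 5 libraries of a section, lines join libraries of the same replicate number, and black marks give the mean ± SD; every line of the 10 genes in blue runs down and every line of the 5 genes in red runs up.

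In the chlorophyll synthesis list 3 of 8 tested genes fell and 0 rose, with a median of -0.32. With the replicate block 1 was called, dxs1, an enzyme of the isoprenoid pathway rather than of chlorophyll synthesis itself. ChlI (oy1), a subunit of the magnesium chelatase that commits the pathway to chlorophyll, was at 634, 683, 555, 699.8 and 486 FPKM in section 8 and 390.3, 431, 425, 407 and 405 FPKM in section 9. The sections did not overlap, and the section 9 values were the tighter set, with a change of -0.56 ± 0.10 (adjusted p 0.0196, block 0.0697, removals 8). DVR, a reductase of the vinyl group of chlorophyll precursors, was at 72.9 ± 5.23 FPKM (SD, n = 5) in section 8 and 48.6 ± 4.51 FPKM (SD, n = 5) in section 9, a change of -0.58 ± 0.10 (adjusted p 0.0195, block 0.0793, removals 10). dxs1, the entry enzyme of the plastid isoprenoid pathway and a member of the carotenoid and isoprenoid list too, was at 436, 409.7, 342, 473 and 332 FPKM in section 8 and 237, 261, 237, 282 and 233 FPKM in section 9. The section 9 libraries again lay below all of section 8, with a change of -0.66 ± 0.11 (adjusted p 0.0157, block 0.0419, removals 9). pcr1, a protochlorophyllide reductase, had a larger change that did not pass the test, -0.90 (adjusted p 0.0689). vp9, a carotene desaturase of the plastid that was in none of the lists, rose by 0.46 ± 0.10 (adjusted p 0.037, block 0.108, removals 3). The carotenoid and isoprenoid list was planned to cover such genes but did not take it in, so that list is incomplete.

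Chloroplast gene expression had 2 calls, both of them lower in section 9. Of the 31 tested genes of its list, which includes protein import, 2 fell and 0 rose, with 21 negative and a median of -0.21. That is 6.45% called, beside 3.35% over all genes and near the 66 of 1036 tested genes with a name. With the replicate block 0 were called. PPR10, which binds and protects chloroplast RNA ends, was at 74.1, 65.0, 58.2, 67.7 and 54.1 FPKM in section 8 and 35.9, 37.2, 38.7, 39.0 and 43.4 FPKM in section 9. The sections did not overlap, with a change of -0.70 ± 0.12 (adjusted p 0.0144, block 0.0843, removals 10). sig2A, a sigma factor of the plastid RNA polymerase, had a change of -0.40 ± 0.10 (adjusted p 0.049, block 0.136, removals 2). TAB2, the most abundant gene of the list, had one of -0.33 (adjusted p 0.225).

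Of 21 heat shock and chaperone genes 2 fell and 1 rose, with a median of -0.38. That is 14.3% called, beside 3.35% over all genes and 66 of the 1036 tested genes with a name, and with the replicate block 0 were called. CHL-CPN10, a chloroplast co-chaperonin, was at 42.9 ± 4.46 FPKM (SD, n = 5) in section 8 and 23.5 ± 7.36 FPKM (SD, n = 5) in section 9, a change of -0.88 ± 0.19 (adjusted p 0.0378, block 0.103, removals 1). hsp101, which dissolves protein aggregates, was at 46.3, 65.6, 45.3, 45.8 and 59.2 FPKM in section 8 and 29.7, 24.6, 26.6, 26.1 and 35.9 FPKM in section 9, with no overlap and a change of -0.85 ± 0.15 (adjusted p 0.0195, block 0.0716, removals 8). The gene that rose was Hsf01, a heat shock transcription factor, by 0.69 ± 0.15 (adjusted p 0.0387, block 0.108, removals 2). hsp22, the most abundant of the list, had a change of -0.38 (adjusted p 0.264), and its section 9 replicate 1 lay within the section 8 range.

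Nitrate reductase was lower in section 9 in both of its named copies. This enzyme reduces nitrate to nitrite, the entry of nitrogen assimilation. NAR (GRMZM5G878558) was at 26.01, 32.3, 22.5, 32.3 and 19.4 FPKM in section 8 and 9.65, 11.8, 9.97, 10.6 and 8.86 FPKM in section 9. All section 9 libraries lay at 8.86 to 11.8 FPKM, below every section 8 library, with a change of -1.28 ± 0.18 (adjusted p 0.00622, block 0.0419, removals 10). NNR1 (GRMZM2G568636) was at 90.6, 79.2, 65.6, 93.4 and 71.0 FPKM in section 8 and 52.7, 48.8, 50.3, 63.1 and 49.3 FPKM in section 9. It did not overlap, and the change was -0.58 ± 0.13 (adjusted p 0.0386, block 0.0793, removals 3). NIR, nitrite reductase, had a change of -0.36 (adjusted p 0.0735), the nitrate transporter NRT1.2 one of -0.76 (adjusted p 0.0515) and gln1, a glutamine synthetase with the highest level of the list, one of 0.21 (adjusted p 0.244). Over the 19 tested genes of nitrogen and sulphur assimilation 2 fell and 0 rose, with a median of -0.13.

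In the C4 cycle a pair of chloroplast transporters fell and the malic enzyme rose. Of the 17 genes of the list, all tested, 1 rose and 2 fell, the median was -0.06, and with the replicate block 0 were called. pOMT1, which exchanges oxaloacetate and malate across the mesophyll chloroplast envelope, was at 735, 670.1, 612, 719 and 623 FPKM in section 8 and 449, 478, 494, 495 and 479 FPKM in section 9. The sections did not overlap, and the change was -0.48 ± 0.07 (adjusted p 0.00869, block 0.066, removals 10). pDCT2, a dicarboxylate carrier of chloroplasts, was at 418, 382, 346, 450.0 and 405 FPKM in section 8 and 270.2, 289.8, 291, 304 and 310.1 FPKM in section 9. Here too the sections were apart, with a change of -0.45 ± 0.08 (adjusted p 0.0203, block 0.0794, removals 7). Its relative pDCT1 had a change of -0.61 ± 0.15 (adjusted p 0.0562, block 0.12), and its section 8 replicate 3 lay within the section 9 range.

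ME1, the malic enzyme that frees carbon dioxide for Rubisco in bundle sheath cells, was at 2283, 2029.6, 2330.1, 2357 and 2381 FPKM in section 8 and 2512, 2955, 3001, 2968 and 2732 FPKM in section 9. Every section 9 library lay above every section 8 library, and the change was 0.31 ± 0.07 (adjusted p 0.0364, block 0.112, removals 3). mdh6, the NADP-malate dehydrogenase of the list, did not overlap and was higher in all 5 pairs, at 505 ± 33.3 FPKM (SD, n = 5) in section 8 and 616 ± 35.0 FPKM (SD, n = 5) in section 9, but its change of 0.29 ± 0.07 missed the threshold (adjusted p 0.0541, block 0.126).

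The remaining 12 C4 genes were not called. C4ppdkZm1, pyruvate phosphate dikinase and the most abundant of them, was at 13882 ± 773 FPKM (SD, n = 5) in section 8 and 15206 ± 913 FPKM (SD, n = 5) in section 9, a change of 0.13 ± 0.06 (adjusted p 0.236, block 0.321). pep1, the carboxylase that captures carbon dioxide, was at 2316 ± 90.7 FPKM (SD, n = 5) in section 8 and 2108 ± 146 FPKM (SD, n = 5) in section 9, a change of -0.14 ± 0.06 (adjusted p 0.252, block 0.358). GRMZM2G121878, GRMZM2G348512 and GRMZM2G094165, entered as carbonic anhydrases, had changes of -0.18 ± 0.09, 0.12 ± 0.07 and -0.08 ± 0.09. Their adjusted p were 0.303, 0.376 and 0.703. GRMZM2G001696, entered as PEP carboxykinase, had 1373 and 1318 FPKM and a change of -0.06 ± 0.07 (adjusted p 0.696, block 0.719). GRMZM2G138258, entered as a pyruvate transporter, and GRMZM2G070605 and GRMZM2G174107, entered as phosphate translocators, had changes of -0.15 ± 0.09, 0.18 ± 0.09 and 0.01 ± 0.11, with adjusted p of 0.43, 0.305 and 0.958. The aminotransferases were low: alt (GRMZM2G088064) was at 9.86 ± 6.38 FPKM (SD, n = 5) in section 8 and 17.4 ± 2.32 FPKM (SD, n = 5) in section 9, a change of 0.94 ± 0.34 (adjusted p 0.168, block 0.188), and GRMZM2G094712 and GRMZM2G146677 had changes of -0.35 ± 0.29 and -0.02 ± 0.28, with adjusted p of 0.58 and 0.978.

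In the 4 lists of the photosynthetic apparatus 2 of 39 tested genes rose and 0 fell. That is 5.13% called, beside 3.35% over all genes and 66 of the 1036 tested genes with a name. In the Calvin-Benson list 0 of 9 tested genes were called, with a median of 0.02. G3PD (GAPA), the most abundant, was at 7681 ± 773 FPKM (SD, n = 5) in section 8 and 7791 ± 874 FPKM (SD, n = 5) in section 9. Of 8 light-harvesting genes 1 rose, cp29, a minor antenna protein of photosystem II, at 1074, 1017, 1129.7, 1068 and 1051 FPKM in section 8 and 1367, 1559.7, 1546, 1535 and 1362 FPKM in section 9. All section 9 libraries lay above all section 8 libraries, with a change of 0.46 ± 0.06 (adjusted p 0.00622, block 0.0481, removals 10). Cab-m7, the most abundant antenna gene, had a change of 0.05 (adjusted p 0.795). None of 9 photosystem genes was called, psa6 having a change of 0.18 (adjusted p 0.412). Of 13 genes of electron transport 1 rose, PGR5, which serves cyclic electron flow around photosystem I, by 0.53 ± 0.12 (adjusted p 0.0432, block 0.118, removals 1), and the ferredoxin FdI, the most abundant, had a change of -0.18 (adjusted p 0.302). The mesophyll markers, 5 genes of which 0 were called, summed to 23355 to 25697 FPKM in section 8 and 22921 to 26789.7 FPKM in section 9. The 6 bundle sheath markers, with 1 higher and 1 lower, summed to 12498 to 14030.3 and 12815 to 14767 FPKM. Both ranges overlapped between the sections, and none of these markers was at 0 in all 10 libraries.

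Among 16 tested sucrose and starch genes 2 rose and 1 fell, with a median of 0.09. GBSSIIa, a granule-bound starch synthase and the most abundant of them, was at 199.7, 189, 217, 182 and 201 FPKM in section 8 and 249, 283, 304, 282 and 266 FPKM in section 9. The sections did not overlap, with a change of 0.48 ± 0.08 (adjusted p 0.0157, block 0.0683, removals 10). SPS, sucrose phosphate synthase, rose by 0.37 ± 0.09 (adjusted p 0.049, block 0.126, removals 2). ivr2, a vacuolar invertase that splits sucrose, was at 73.9, 63.7, 59.5, 63.3 and 57.7 FPKM in section 8 and 45.5, 42.2, 36.2, 44.3 and 36.5 FPKM in section 9, with no overlap and a change of -0.62 ± 0.12 (adjusted p 0.0196, block 0.0668, removals 9). In the glycolysis list, 1 of 16 genes rose and 1 fell. gpi (GRMZM2G065083), a glucose-6-phosphate isomerase, was at 17.1, 22.5, 23.3, 29.1 and 28.4 FPKM in section 8 and 51.1, 43.0, 43.2, 46.4 and 49.2 FPKM in section 9. Its libraries did not overlap, and the change was 0.94 ± 0.15 (adjusted p 0.0133, block 0.0682, removals 10). The gene that fell was pgd3, a 6-phosphogluconate dehydrogenase, which stands in this list but is not an enzyme of glycolysis itself. It was at 48.3 ± 6.67 FPKM (SD, n = 5) in section 8 and 23.2 ± 4.39 FPKM (SD, n = 5) in section 9, a change of -1.04 ± 0.15 (adjusted p 0.00884, block 0.067, removals 10).

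The named genes that rose most came from several groups. PR-5, a thaumatin-like defence protein, was at 5.76, 1.69, 2.33, 4.76 and 3.19 FPKM in section 8 and 18.3, 12.0, 24.7, 23.7 and 13.7 FPKM in section 9. The lowest section 9 library lay above the highest section 8 library, and the change was 2.13 ± 0.31 (adjusted p 0.00869, block 0.0419, removals 10). With a section 8 mean of 3.55 FPKM, it passed the filter of 5 FPKM through section 9, where it is high. Its p and removals are therefore given as a description. Of the 18 tested genes for pathogenesis and chitinases it was the only called riser, while exg1 fell by 0.66 ± 0.12 (adjusted p 0.0191, block 0.0794, removals 8) and BX5, a cytochrome P450 of benzoxazinoid synthesis, by 0.55 ± 0.10 (adjusted p 0.0176, block 0.0529, removals 9). GRMZM2G157596, whose table entries carry the names cenH3 and Hist1h3b, was at 5.40, 4.46, 6.13, 3.91 and 8.39 FPKM in section 8 and 138, 84.5, 11.3, 40.7 and 156 FPKM in section 9. It was low in all section 8 libraries, and the section 9 libraries lay above them but far apart from each other, with a change of 3.27 ± 0.61 (adjusted p 0.0202, block 0.0589, removals 5). It matched 2 entries, so which gene its values stand for is uncertain.

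RADIALIS, a small MYB-type regulator, was at 25.6, 28.5, 36.0, 13.4 and 35.9 FPKM in section 8 and 51.4, 46.9, 58.7, 70.2 and 57.9 FPKM in section 9, a change of 1.07 ± 0.25 (adjusted p 0.0461, block 0.122, removals 3). vignain, a cysteine protease, was at 53.3, 50.3, 78.3, 47.7 and 99.1 FPKM in section 8 and 134, 111, 129, 131 and 118 FPKM in section 9, a change of 0.97 ± 0.19 (adjusted p 0.0269, block 0.0828, removals 2). In both genes the sections did not overlap. CKX10, a cytokinin oxidase that breaks down the hormone, was at 31.0, 36.1, 57.0, 41.3 and 54.8 FPKM in section 8 and 72.9, 67.9, 80.3, 69.97 and 94.1 FPKM in section 9. All section 9 values were above those of section 8, with a change of 0.82 ± 0.18 (adjusted p 0.0373, block 0.0628, removals 2), and it was the 1 call among 28 genes of auxin, gibberellin, ethylene and cytokinin, a share of 3.57%, near the 3.35% over all genes. MYB59 rose by 0.74 ± 0.14 (adjusted p 0.0246, block 0.0752, removals 6) and was the 1 call in a list of 67 transcription factors that does not hold Hsf01, RADIALIS or rs2, a share of 1.49%, below the 3.35% over all genes. LOL3 (GRMZM2G120079) rose by 0.68 ± 0.15 (adjusted p 0.0362, block 0.0876, removals 1), and a second gene of that name (GRMZM2G125314) by 0.53 ± 0.11 (adjusted p 0.035, block 0.0869, removals 3).

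Protein modification gave 2 risers and 0 fallers among 15 genes of ubiquitin and proteasome. SUMO1b, a small ubiquitin-like modifier, was at 37.5, 35.9, 37.3, 28.6 and 41.6 FPKM in section 8 and 55.8, 53.5, 61.9, 55.7 and 53.8 FPKM in section 9. It did not overlap, and the change was 0.63 ± 0.12 (adjusted p 0.0211, block 0.0869, removals 9). csu456(uce), listed as a ubiquitin-conjugating enzyme, rose by 0.61 ± 0.14 (adjusted p 0.0465, block 0.066, removals 2). MSRB1, a methionine sulfoxide reductase, rose by 0.58 ± 0.11 (adjusted p 0.0202, block 0.0869, removals 8) and was the 1 call among 31 genes of oxidative stress, a share of 3.23%, near that over all genes, with a median of 0.17. GOS2, an initiation factor of translation, rose by 0.52 ± 0.12 (adjusted p 0.0373, block 0.0857, removals 2), and csu275a(mtl), a metallothionein-like gene, by 0.52 ± 0.13 (adjusted p 0.0492, block 0.105, removals 1).

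The 5 most abundant genes that rose held ME1 and bss1 and 3 that the table does not name. GRMZM5G894055 was at 1857, 1793, 1746, 1724 and 1449 FPKM in section 8 and 2612, 2997, 2887, 2697 and 2601 FPKM in section 9. Both sets were well apart, with a change of 0.69 ± 0.08 (adjusted p 0.0021, block 0.0242, removals 10). GRMZM2G153184 rose by 0.51 ± 0.07 (adjusted p 0.00601, block 0.0419, removals 10) and GRMZM2G016066 by 0.29 ± 0.05 (adjusted p 0.0196, block 0.0843, removals 5). bss1 was at 1395 ± 233 FPKM (SD, n = 5) in section 8 and 1949 ± 110.3 FPKM (SD, n = 5) in section 9, a change of 0.49 ± 0.10 (adjusted p 0.0289, block 0.0865, removals 3), and its section 8 replicate 6 reached the section 9 range. A further 5 called genes were listed at 0 in every section 8 library, so that no fold or p is given, since they passed the filter through section 9 alone. Of these only GRMZM2G089017 was above 0 in all 5 section 9 libraries, at 10.3, 12.4, 26.5, 15.3 and 14.2 FPKM, with the other 4 at 0 in 1 section 9 library each.

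The other named genes that fell were spread over several functions. lox10, a lipoxygenase of leaf volatile and jasmonate chemistry and the most abundant of 24 genes in that list, was at 592, 588, 445, 589 and 579.8 FPKM in section 8 and 328, 361, 299, 429 and 304 FPKM in section 9. The sections did not overlap, with a change of -0.70 ± 0.12 (adjusted p 0.016, block 0.0419, removals 9). It was the 1 call of the list, a share of 4.17% beside 3.35% over all genes and 66 of the 1036 tested genes with a name. rs2 (rough sheath2), a MYB-type repressor of meristem genes in leaves, was at 8.39, 12.1, 9.28, 9.46 and 6.35 FPKM in section 8 and 5.06, 1.59, 2.26, 2.28 and 3.03 FPKM in section 9. It did not overlap, and the change was -1.43 ± 0.30 (adjusted p 0.0336, block 0.123, removals 4). As rs2 passed the filter through section 8, where it is high, its p and removals are given as a description. rfz1 was at 154, 186, 137, 157 and 117 FPKM in section 8 and 63.0, 58.7, 36.2, 60.4 and 16.1 FPKM in section 9, with no overlap and a change of -1.79 ± 0.34 (adjusted p 0.0202, block 0.0419, removals 6). prcw1 was at 86.2 ± 9.74 FPKM (SD, n = 5) in section 8 and 35.1 ± 6.55 FPKM (SD, n = 5) in section 9, a change of -1.28 ± 0.14 (adjusted p 0.00245, block 0.0419, removals 10). kin1, which its name alone put among the genes of DNA replication and mitosis, fell by 0.62 ± 0.13 (adjusted p 0.0358, block 0.109, removals 3) and was the only call of 8 tested genes there. tub3, a beta-tubulin, fell by 0.74 ± 0.11 (adjusted p 0.0104, block 0.0744, removals 10).

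Several lists had no call. The 33 tested genes of cytosolic ribosomal proteins were called in 0 cases, yet 28 had a negative change and their median was -0.40. Their median within a replicate pair ran from -1.10 to 0.10, so the pairs differed by more than that median, and rpl19, the most abundant, had a change of -0.30 (adjusted p 0.0848). No call was made among 17 genes of sugar and water transport (median -0.07), 24 of water deficit and abscisic acid (-0.03), 19 of mitochondrial respiration (-0.06), 6 of clock and light (-0.18), 4 of photorespiration (0.03) or 4 of chlorophyll breakdown and senescence (0.12). The most abundant members of these lists, in the same order, were inra1(tmp), PYL10, mdh6, COL8, go1 and ccp1, of which mdh6 is the C4 enzyme above and stands in the respiration list by its name alone, and their changes were -0.20 ± 0.07, 0.02 ± 0.14, 0.29 ± 0.07, -0.03 ± 0.11, 0.17 ± 0.09 and -0.07 ± 0.23. The 2 tested organelle ribosomal proteins were not called either. Of 14 translation factors GOS2 was the only call, and eif5a, the most abundant, had a change of 0.18 ± 0.08. The most abundant transcription factor, G2-like1, had a change of 0.11 ± 0.08, and the most abundant histone gene, his1a, one of -0.28 ± 0.11. Of 20 vascular markers 6 were tested and 0 called, 6 were at 0 in all 10 libraries, and they summed to 299 to 492 FPKM in section 8 and 314 to 331 FPKM in section 9. The median change of the 6 tested was -0.64. sut1, a sucrose transporter with most of the sum, had a change of -0.0044 (adjusted p 0.984), and LAC1 (GRMZM5G842071), at a mean of 78.1 FPKM, one of 0.15 (adjusted p 0.603). Laccase-17, Laccase-13 and CesA12, near the filter at means of 6.53, 5.55 and 6.78 FPKM, had -0.84 (adjusted p 0.568), -1.37 (adjusted p 0.437) and -1.38 (adjusted p 0.108). GRMZM2G445905 had a change of -0.45 (adjusted p 0.449). The part of vascular tissue in the lignin and wall values was not tested. Of 60 markers of dividing cells 16 were tested, with 1 higher and 1 lower, and 2 were at 0 in all 10 libraries. The sums were 1116 to 1609.6 and 937 to 1257 FPKM, and the ranges overlapped. Of the mean sums of 1355 FPKM in section 8 and 1068 FPKM in section 9, kin1 alone held 785 and 510 FPKM. As kin1 is in the list by its name alone, the sums are no measure of dividing cells.

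**Figure D3:**
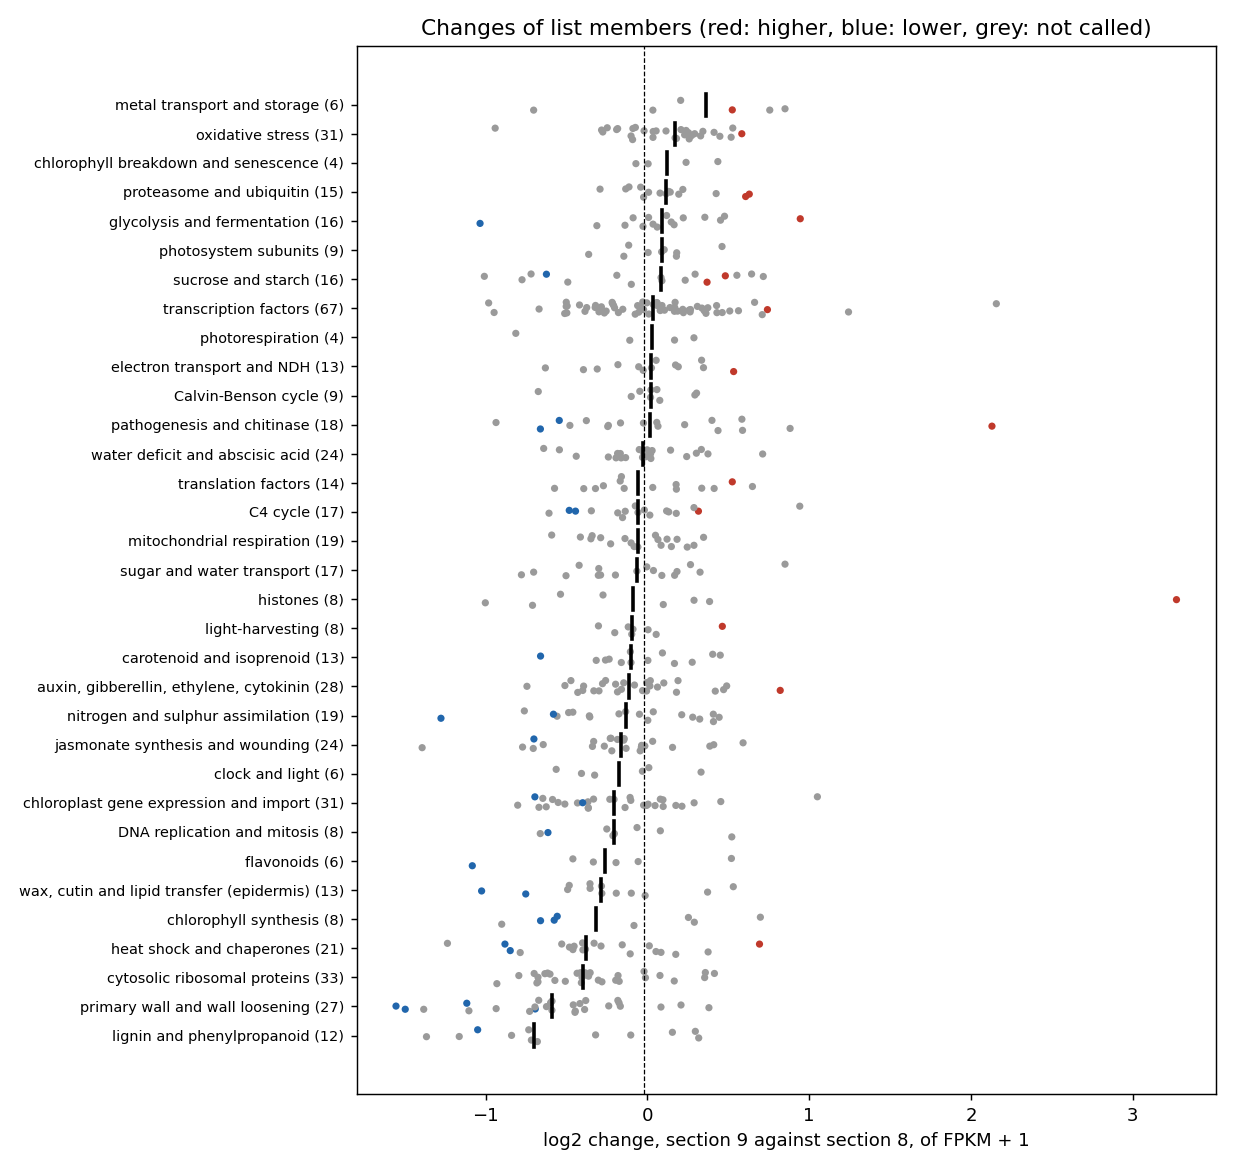
Log2 change of FPKM + 1 from section 8 to section 9 (horizontal) of the tested members of each list with 4 or more of them (rows, with their number), red where called higher, blue where called lower and grey where not called. Black bars are list medians and the dashed line the median of all tested genes; the lowest medians belong to the lignin, wall and ribosomal protein lists.

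The step from section 8 to 9 had fewer calls than the steps to either side, of which that from 6 to 8 passes over section 7 and so spans a longer distance. From section 6 to 8, 3637 of 11228 genes (32.4%) were called, 828 higher and 2809 lower, and from section 9 to 10, 1431 of 9569 (15.0%), 483 higher and 948 lower. After quantile normalization the splits were 2067 higher and 1625 lower for the former and 677 and 733 for the latter. The numbers themselves were not tested against each other, and the steps share libraries with this comparison. The median spread between libraries of a section was an SD of 0.44 on the log2 scale for sections 8 and 9, 0.40 for 6 and 8, and 0.33 for 9 and 10. The median size of a change was 0.32, 0.55 and 0.31 in the same order. Section 7 had 1 library of usable depth and was not compared.

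Sections 6 and 10 share no library with sections 8 and 9, although they come from the same pools of plants, and the called genes were looked at there. Over the 10071 tested genes, 1903 (18.9%) were higher in section 10 than in section 6 and 4434 (44.0%) were lower, with a median change of -0.38. Of the 124 genes higher in section 9, 106 were higher in section 10 than in section 6 and 2 were lower, with a median of 1.27. Of the 213 genes lower in section 9, 210 were lower in section 10 than in section 6 and 0 were higher, with a median of -1.99. Calls between sections 8 and 9 grew more frequent with expression level. The background of all tested genes, here and below, was not matched to the called genes for level. After quantile normalization, which set the median of all genes to 0.10 and the split over all genes to 3423 higher and 2790 lower, the counts were 114 of 124 higher and 198 of 213 lower. After median ratio scaling, with the median of all genes at -0.06 and a split of 2920 higher and 3197 lower, they were 111 and 197.

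**Figure D4:**
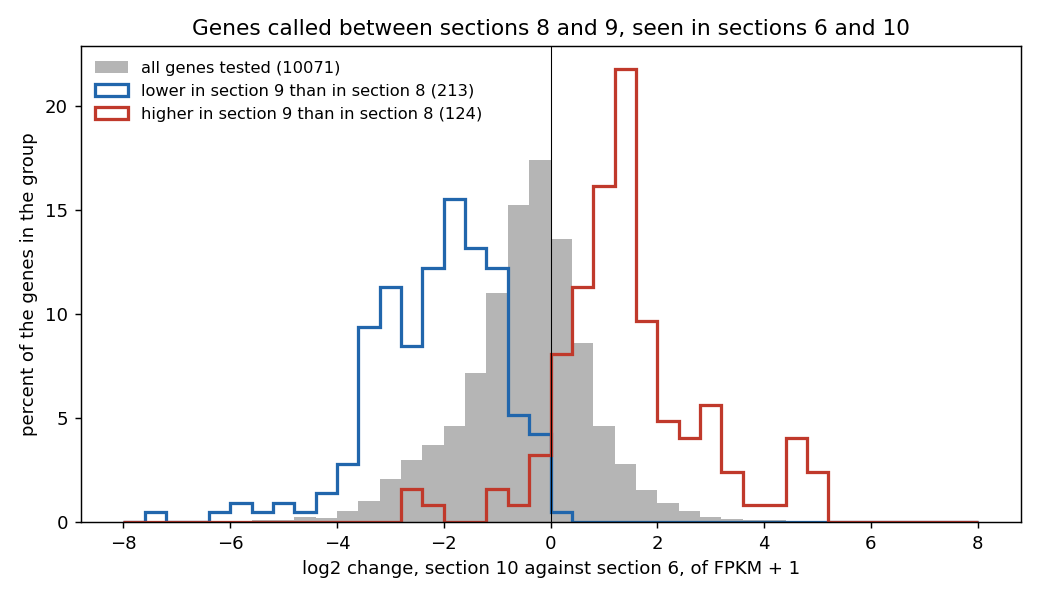
Log2 change of FPKM + 1 from section 6 to section 10 (horizontal) as percent of the genes in a group (vertical, bins of 0.4) for the 124 genes higher in section 9 than in section 8 (red), the 213 lower ones (blue) and all 10071 tested genes (grey). The red outline lies mostly right of 0, around a median of 1.27, and the blue outline almost wholly left of 0, around -1.99.

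The same genes were also followed over the adjoining steps, each of which shares the libraries of section 8 or of section 9. From section 6 to 8, 79 of the 124 higher genes rose and 8 fell, where 8.84% and 20.9% of all 10071 genes did so. From section 9 to 10, 42 rose and 17 fell, where 4.7% and 10.3% of all genes did. Of the 213 lower genes 151 fell and 6 rose from section 6 to 8, and 92 fell and 5 rose from section 9 to 10.

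Single genes followed the leaf in several shapes. CslF6-1 fell at each step, by 1.11 (adjusted p 0.000955) from 6 to 8 and by 0.61 (adjusted p 0.0304) from 9 to 10 on the log2 scale, and its section means ran 190.5, 90.1, 31.1 and 19.5 FPKM in sections 6, 8, 9 and 10. GRMZM2G309058 had a change of -0.10 (adjusted p 0.488) from 6 to 8 and fell by 1.12 (adjusted p 0.00113) from 9 to 10. NAR had changes of -0.19 (adjusted p 0.398) and -0.44 (adjusted p 0.0717) over those steps, neither of them called. pOMT1 rose by 0.26 (adjusted p 0.0146) from 6 to 8, fell from 8 to 9, and fell again by 0.20 (adjusted p 0.0153) from 9 to 10.

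ME1 rose by 0.81 (adjusted p 4.81e-05) from 6 to 8 and had a change of -0.05 (adjusted p 0.604) from 9 to 10. Its section means were 1301, 2276, 2833 and 2736 FPKM. PR-5 had changes of -0.11 (adjusted p 0.808) and -0.15 (adjusted p 0.734) on either side, and its section means of 18.5 and 16.4 FPKM in sections 9 and 10 were the highest of the 15 sections. gpi, which rose from 8 to 9, fell from 9 to 10, by 0.73 (adjusted p 0.0131). hsp101, which fell from 8 to 9, rose from 9 to 10, by 0.55 (adjusted p 0.00791). Whether the step from 8 to 9 differed from its neighbours in any of these genes was not tested.

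**Figure D5:**
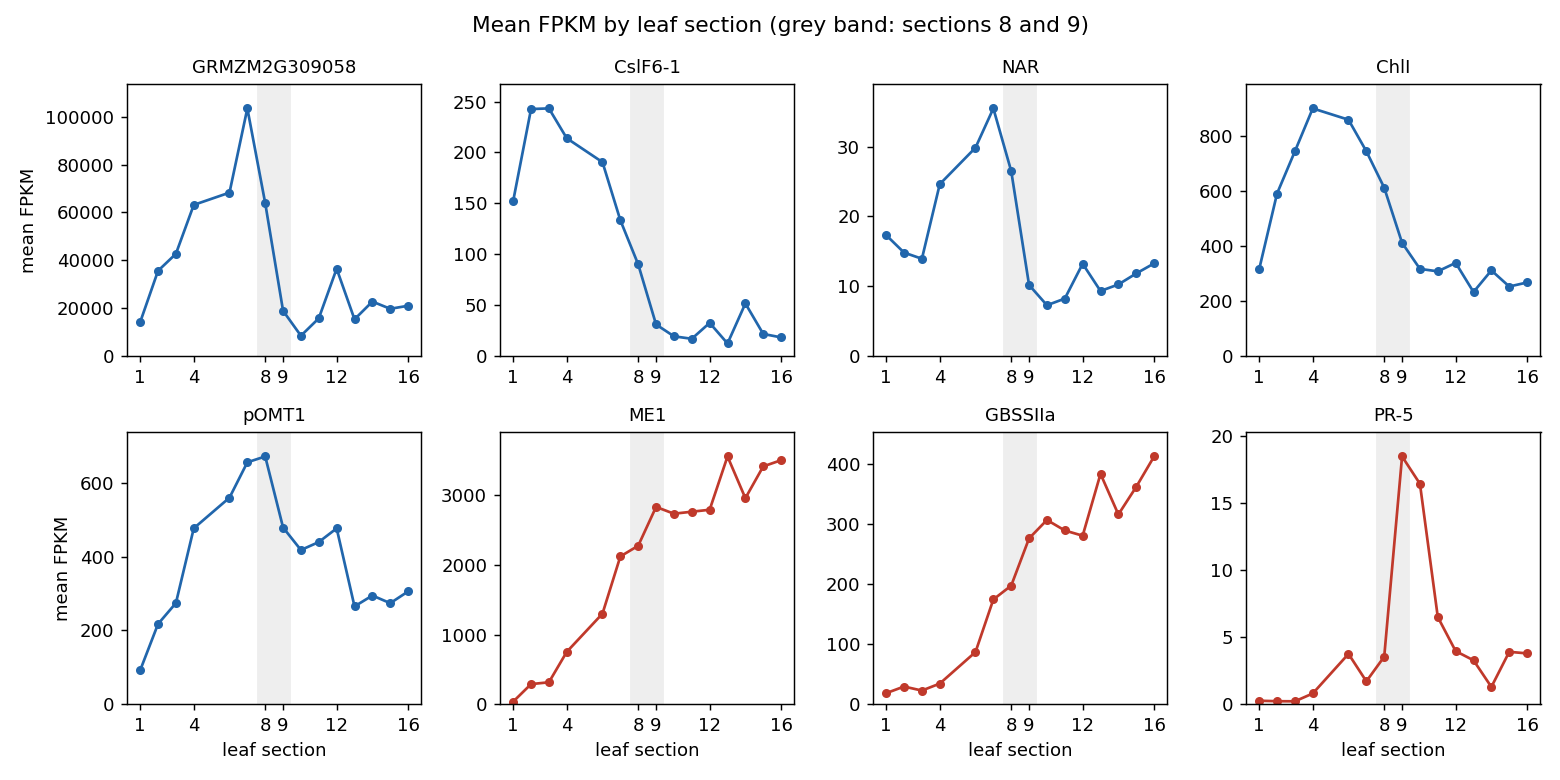
Mean FPKM (vertical, from 0) of 8 genes by leaf section (horizontal, sections 1 to 4 and 6 to 16), over the libraries of at least 0.1 times the median depth, which left 1 library in section 7, 4 in sections 1 and 3 and 5 in the others. The grey band marks sections 8 and 9, where genes in blue fell and genes in red rose.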

How the data were processed

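Polyadenylated RNA was extracted with TRIzol and made into strand-specific libraries, per the labels' protocols. The deposited values are FPKM per gene and library as the authors computed them. The submitters' processing notes name TopHat2 2.0.10, Cuffdiff 2.1.1 and the build B73 RefGen_v3, without roles; how fragments shared by similar genes were assigned is not given in the sources used here. FPKM divide by mapped fragments, so a change of a few abundant genes shifts all others.

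Genes with a mean of at least 5 FPKM over the 10 libraries were tested with limma 3.58.1 (R 4.3.3) on log2(FPKM + 1), with an intensity trend of the spread and Benjamini-Hochberg adjustment over all 10071, called at an adjusted p under 0.05. Just inside the filter (5 to 5.5 FPKM) lay 533 features and just outside (4.5 to 5) 584. Separate fits with the same settings compared sections 6, 8, 9 and 10. The fits were first run on simulated data with known changes. Relative depth was read from the value steps of features with a mean of at most 0.5 FPKM, and libraries below 0.1 times the median depth, 6 of 75, were left out of the section means.

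The members and gene lists were chosen with earlier results of these data known. Names came from a RefSeq gene table (1036 tested genes had one); its assembly differs from the files' build, so no coordinate is given. Named genes were the 12 largest rises and the 12 largest falls among called genes with a name and 1 direction in all 5 pairs, the 5 most abundant calls in each direction, up to 2 called members and the most abundant member of each list, and the C4 list. CesA-3, CesA-4, CesA-8, 4CL, pcr1, NIR, NRT1.2, SPS, vp9, tub3, BAF60.10, Laccase-13, Laccase-17, CesA12, LAC1 (GRMZM5G842071), sut1, GRMZM2G445905, GRMZM2G125314, GRMZM2G089017 and GRMZM5G825755 were added after their values were seen. The lists of glycolysis and of chloroplast gene expression and import were also made after the others.

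Replicate numbers pair the libraries because, per the labels, a number stands for plants pooled and collected together. Deviations of same-number libraries from their section means correlated at -0.03 to 0.09. Alternatives were the replicate block, scalings, pseudocounts of 0.1 and 5, filters, other libraries in the fit, a robust prior, library weights and the removal of each library.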

Additional observations from a re-analysis of the deposited data

Results flagged for a closer look

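Among 206 sets of 5 libraries, each a gene or measure within a section, 13 held a value far from the other 4, where chance gives about 1 in 20. They are given as values, and the reason for each was not tested.

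In section 9, replicate 6 stood above the rest for GRMZM2G309058, at 27158 FPKM against 15325 to 17789.7 FPKM, and so did its share of the FPKM sum, at 3.21%. The same library held BURP4 at 42.7 FPKM against at most 15.2 FPKM in the other 4. Section 9 replicate 1 was high for hsp22, at 452 FPKM, and low for GRMZM2G001696, entered as PEP carboxykinase, at 1163 FPKM. Section 9 replicate 4 was high for NNR1, at 63.1 FPKM, and replicate 3 for SUMO1b, at 61.9 FPKM.

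In section 8, replicate 2 was high for bk2, at 37.2 FPKM, and for PAL1, at 269 FPKM, and low for ME1, at 2029.6 FPKM. Replicate 3 was low for lox10, at 445 FPKM. Replicate 6 was high for sig2A, at 76.9 FPKM, and for bss1, at 1804 FPKM. Without section 8 replicate 2, bk2 and ME1 had adjusted p of 0.0618 and 0.0818, and PAL1 of 0.0358.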

How the results depend on the processing

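The direction of the 111 genes followed did not turn under any of the 23 alternatives run, but calls did. Scaling moved the median of all genes in section 9 against 8 by under 0.1 on the log2 scale. The 124 genes higher in section 9 became 16 with the replicate block, 194 after quantile normalization, 57 with a mean of at least 1 FPKM, 192 with at least 20, 36 with no filter, 9 with all 75 maize libraries in the fit, 315 with those of relative depth of at least 0.1, and 228 with library weights. The 213 lower genes became 47 with the block, 117 at 1 FPKM, 64 with no filter, 3 with all 75 libraries and 412 with weights. Removing single libraries gave 27 to 160 higher and 54 to 296 lower genes. The cause of these moves was not tested, except that a lower filter adds genes to the adjustment.

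For sections 8 and 6, quantile normalization gave 2067 higher and 1625 lower genes, against 828 and 2809. For sections 10 and 6 it gave 3423 and 2790, and median ratio scaling 2920 higher, against 1903 and 4434. Of the 337 calls, 4 were made under every alternative that tested the gene, 2 higher and 2 lower. The 2 higher ones were PR-5 and GRMZM2G089017, with section 8 means of 3.55 and 0 FPKM. Both passed the filter of 5 FPKM through section 9, so this count adds no support for their rise. The block left 52 of the 111 genes on the same side of the threshold and ended 59 calls. rfz1, prcw1, NAR, BAF60.10, lox10, dxs1, cp29 and PR-5 were the 8 named genes called with it. Of 34 list medians, at most 8 changed sign under any alternative. GRMZM2G309058 is the highest feature in each of the 10 libraries of sections 8 and 9, so quantile normalization sets its change between them to 0. The section 8 libraries were the shallower ones, and the effect of depth on calls in low genes was not tested.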

Other observations

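Of the 337 called genes 271 had no name, where 1036 of all 10071 tested genes had one. The 66 with a name split into 26 higher and 40 lower, and all of them had the same direction in the 5 pairs of a replicate number. Among the calls of genes listed at 0 throughout section 8, GRMZM5G825755 was at 75.04, 362, 257, 111 and 0 FPKM in the section 9 libraries. Its mean in section 6 was 209.6 FPKM, and the 1 section 7 library of usable depth held it at 77.2 FPKM. The value of 0 in section 8 was thus not shared by section 6 or by that library. GRMZM2G089017 was likewise at 0 in section 8 and had a mean of 13.4 FPKM in section 6 and 26.5 FPKM in the section 7 library. Whether such zeros are failed estimates was not tested.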
